A study of Homo sapiens with 8 samples.

Results

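Ceefourin 2, an inhibitor of the exporter ABCC4, was given on its own to MEG-01 cells and compared with untreated MEG-01 cells, so that 4 of the 8 libraries of the study are compared here. They were chosen by their labels: 2 libraries of untreated cells and 2 of cells given Ceefourin 2 for 48 h. The other 4 libraries come from cells given the phorbol ester PMA at 100 nM for 48 h, without and with 20 µM Ceefourin 2, and serve below to set the effect of the inhibitor beside its effect in PMA-treated cells. The dose of Ceefourin 2 given alone, a vehicle for the untreated cells and the time at which they were harvested are not given in the sources used here. No label says that the 2 libraries of a group came from separate cultures, so the p-values measure the spread between libraries, which may be technical.

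MEG-01 is an established human line from a chronic myeloid leukaemia in megakaryoblastic blast crisis. It carries the BCR-ABL1 fusion kinase and holds features of the common precursor of platelets and red cells, so it is used to study how megakaryocytes mature. ABCC4, also called MRP4, pumps cyclic nucleotides, some prostaglandins and nucleotide drugs out of cells, and in platelets it also sits in granule membranes. A block of the pump is a way to ask what its cargo does inside the cell. The comparison without PMA uses cells that were not driven to differentiate. Only RNA is compared here, so whether the pump was blocked, or whether a change ran through it, was not tested.

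Messenger RNA was sequenced and counted per gene, and levels are given as CPM, the counts of a gene scaled to a common library size and, by TMM, to a common composition. The 4 libraries held between 44430292 and 59458967 expected counts, and mitochondrially encoded transcripts took 2.55% to 3.94% of them. The megakaryocytic label was checked on a list of 28 tested megakaryocyte and platelet genes. Its summed level was 1120 and 1210 CPM in the untreated libraries and 1390 and 1540 CPM with Ceefourin 2. ITGA2B, the alpha chain of the platelet fibrinogen receptor, was at 536 CPM on average in untreated cells, whereas PF4, GP5 and P2RY12, which mark late megakaryocytes and platelets, were too low to be tested. Markers of other lineages were checked in the same way. In the untreated libraries the erythroid list summed to 6890 and 7480 CPM, mast cell and basophil genes to 1050 and 962 CPM, endothelial genes to 532 and 561 CPM and monocyte and macrophage genes to 474 and 491 CPM. The erythroid sum was thus above the megakaryocyte sum in both untreated libraries. The 7 tested lymphoid genes summed to between 4.09 and 8.31 CPM and the 8 stromal genes to between 2.51 and 4.62 CPM over the 4 libraries, and CD3E, CD163 and S100A8 were too low to be tested. In bulk RNA, fewer cells of a type and less RNA per cell cannot be told apart.

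Of 17314 tested genes, 166 rose (0.959%) and 125 fell (0.722%) with Ceefourin 2 at a Benjamini-Hochberg adjusted p below 0.05 in edgeR's quasi-likelihood test, fitted on all 8 libraries. These are the called genes below, and rose and fell are used of them alone. At least 2-fold changes were reached by 73 of the genes that rose and by 72 of those that fell, and the smallest called change was 0.42 on the log2 scale. The 2 Ceefourin 2 libraries lay outside the range of the 2 untreated ones for all 291 called genes, as they did for 40.7% of all tested genes. The median log2 fold change of all tested genes was -0.005. With the replicate number as a block, 1430 genes were called (807 higher and 623 lower), among them all 291. The count depends on the libraries that enter the fit: it was 30 without untreated replicate 1, 36 without untreated replicate 2, 115 without Ceefourin 2 replicate 1, 127 without Ceefourin 2 replicate 2, and between 166 and 188 without 1 of the 4 libraries with PMA.

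ABCC4, the target of the inhibitor, did not pass the threshold. Its level was 344 and 305 CPM in the untreated libraries and 387 and 364 CPM with Ceefourin 2 (log2 fold change 0.21, SE 0.10, edgeR adjusted p = 0.41). Both treated libraries lay above both untreated ones, by less than the test asks for. With the replicate number as a block ABCC4 passed (edgeR adjusted p = 0.038, and 0.021 on the 4 libraries alone). Per transcript length, ABCC4 was the highest of the 4 related exporters named here, at 82.8 TPM in untreated cells and 102 TPM with Ceefourin 2. ABCC1, a pump for glutathione conjugates, was at 30.7 and 32.7 TPM, ABCC5, a pump for cyclic nucleotides, at 27.7 and 22.6 TPM, and ABCC10 at 8.37 and 7.59 TPM. None of the 6 tested ABCC exporters was called, and their log2 fold changes in CPM lay between -0.57 and 0.21.

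Targets of the aryl hydrocarbon receptor, a ligand-activated transcription factor, included the gene with the smallest p, CYP1B1. CYP1B1 and AHRR were among the 15 largest rises of called protein-coding genes of at least 5 CPM. When a small aromatic molecule binds it, the receptor enters the nucleus, pairs with ARNT and binds short DNA elements with the core GCGTG, and its classical targets are the CYP1 monooxygenases and its own repressors. Of 7 tested target genes 4 rose and none fell, with a list median of 0.74 on the log2 scale against -0.005 over all tested genes. Because these genes share this known route of control, the cores in 3 of their promoters are shown, as 100 bases on the gene's own strand from RefSeq promoter windows of GRCh38.p14, with each GCGTG, or CACGC where it lies on the other strand, in capitals.

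CYP1A1: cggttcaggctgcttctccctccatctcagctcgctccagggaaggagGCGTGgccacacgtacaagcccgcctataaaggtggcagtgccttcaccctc
TIPARP: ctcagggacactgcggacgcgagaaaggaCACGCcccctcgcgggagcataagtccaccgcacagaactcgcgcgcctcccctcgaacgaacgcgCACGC
AHRR: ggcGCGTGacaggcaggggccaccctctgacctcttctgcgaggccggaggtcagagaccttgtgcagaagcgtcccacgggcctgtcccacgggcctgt

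The stretches are chr15:74725534-74725633 on the minus strand for CYP1A1, chr3:156674353-156674452 on the plus strand for TIPARP and chr5:322360-322459 on the plus strand for AHRR. The windows run over 300 bases, from 250 before to 50 after a start site, and the RefSeq table holds none for CYP1B1. GCGTG was found on either strand in 36.5% of 35116 such windows, and in at least 1 window of 5 of the 6 target genes that have one, so its presence here is common and is a description only.

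CYP1B1, a monooxygenase that oxidises oestrogens and polycyclic aromatic compounds, had the smallest p of all genes. It was at 53.5 and 57.7 CPM in untreated cells and 353 and 333 CPM with Ceefourin 2 (log2 fold change 2.63, SE 0.11, edgeR adjusted p = 0.00013). The treated libraries stood about 6.17 times above the untreated ones, and the libraries of each group lay close together. CYP1A1, the related monooxygenase of toxicology assays, went from 0.52 and 0.523 CPM to 2.85 and 4.85 CPM (2.88, SE 0.38, adjusted p = 0.014). It stayed a low transcript in both treated libraries. AHRR, which represses the receptor, was at 1.56 and 2.07 CPM and then at 10.3 and 8.38 CPM (2.35, SE 0.20, adjusted p = 0.0037), in the better counted of 2 overlapping gene models that the files give under this name. TIPARP, an ADP-ribosyltransferase that also restrains the receptor, rose from 23.8 and 21.4 to 40.3 and 34.9 CPM (0.74, SE 0.13, adjusted p = 0.039).

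The other 3 tested targets did not pass. SLC7A5, a large amino acid transporter, had 310 and 324 CPM in untreated cells and 326 and 601 CPM with Ceefourin 2, so the second treated library alone stood apart. The quinone reductase NQO1 had 5.78 and 4.75 CPM and then 4.61 and 3.46 CPM, and the monooxygenase CYP2S1 was below 1 CPM in each of the 4 libraries. The receptor gene itself, AHR, rose from 23.3 and 20.5 to 51.8 and 41.8 CPM (log2 fold change 1.10, SE 0.21, edgeR adjusted p = 0.049). It was the single called gene among 6 tested genes of the receptor and its partners. On the 4 untreated and Ceefourin 2 libraries alone CYP1B1 and AHRR passed, and CYP1A1, TIPARP and AHR did not. Leaving out 1 library at a time left 2 to 4 of the 7 targets called. CYP1B1 and AHRR were called in all 8 of those fits, CYP1A1 in 6, and TIPARP and AHR in 2 each.

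**Figure D1:**
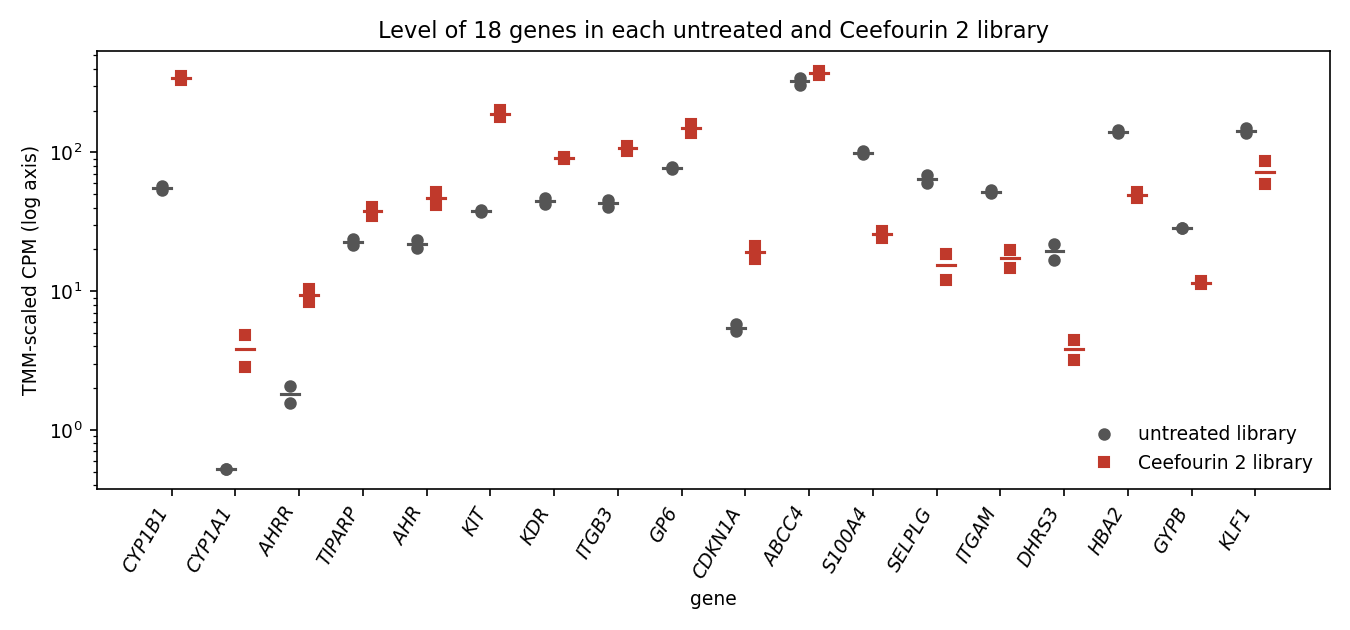
Each point is 1 library and each short line the mean of its group, in TMM-scaled CPM on a log axis, for 18 genes in untreated cells (circles) and cells given Ceefourin 2 (squares). CYP1B1 and KIT show the widest gaps among the abundant rises, S100A4, SELPLG and DHRS3 among the falls, and the ABCC4 libraries of the 2 groups lie side by side.

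Several growth factor and cytokine receptor genes rose. Of 19 tested receptor genes 5 rose and none fell, with a median of 0.63. KIT, the receptor for stem cell factor on progenitors and mast cells, was at 37.0 and 38.5 CPM in untreated cells and 200.4 and 179 CPM with Ceefourin 2 (log2 fold change 2.33, SE 0.10, adjusted p = 0.00015). No treated library came near the untreated range. KDR, a receptor for vascular endothelial growth factor, rose from 42.1 and 46.9 to 89.8 and 93.0 CPM (1.04, SE 0.09). PDGFRA, a platelet-derived growth factor receptor, lies on chromosome 4 as KIT and KDR do and rose from a low level of 0.852 and 0.800 to 2.06 and 1.82 CPM (1.23, SE 0.15). The oncostatin M receptor OSMR also rose from below 1 CPM, to 2.20 and 2.95 CPM. IL4R, the interleukin 4 receptor chain, rose from 64.05 and 60.03 to 98.0 and 96.6 CPM (0.65, SE 0.08). NRP1, a co-receptor for semaphorins and vascular endothelial growth factor outside that list, was among the 15 largest rises. It went from 2.89 and 2.12 to 13.0 and 10.2 CPM (2.22, SE 0.22). On the 4 untreated and Ceefourin 2 libraries alone KIT passed, and KDR, PDGFRA, OSMR, IL4R and NRP1 did not. Between 2 and 5 receptors of the list stayed called when 1 library was left out, and KIT and KDR were called in all 8 of those fits.

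Megakaryocyte and platelet genes changed in both directions. Of 28 tested members 4 rose and 1 fell, with a median of 0.21 and a range from -2.99 to 1.31. ITGB3, the beta chain of the fibrinogen receptor, was at 45.4 and 40.6 CPM and then at 112 and 102 CPM (log2 fold change 1.31, SE 0.09, adjusted p = 0.0015). Its treated libraries were 2.48 times higher, while its partner ITGA2B, with means of 536 CPM untreated and 640 CPM treated, did not pass (0.26, SE 0.15). The collagen receptor GP6 rose from 75.2 and 78.8 to 139 and 160 CPM (0.96, SE 0.14). F2R, the thrombin receptor PAR1, rose from 135 and 118 to 234 and 196 CPM (0.77, SE 0.14). THBS1, the alpha granule protein thrombospondin 1, rose from 1.54 and 1.62 to 3.82 and 2.64 CPM (1.03, SE 0.18). CD36, a scavenger receptor of platelets, monocytes and red cell precursors, fell from 16.5 and 20.2 to 5.02 and 6.64 CPM (-1.66, SE 0.20). ITGB3 was called in all 8 fits that leave out 1 library, GP6 in 5, F2R in 2 and THBS1 in 1.

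Many red cell genes fell. Of 35 tested erythroid genes 16 fell and none rose, the fold changes of all 35 were below 0, and the list median was -1.07 on the log2 scale. Their summed level was 6890 and 7480 CPM in untreated cells and 4160 and 4410 CPM with Ceefourin 2. Erythroid transcripts were therefore present before treatment. HBG2, a fetal globin gene, fell from 2357 to 1122 CPM on average (-1.07, SE 0.18). The alpha globin gene HBA2 was at 138 and 144 CPM and then at 52.0 and 47.1 CPM (-1.51, SE 0.13, adjusted p = 0.0037). HBB, the adult beta globin, was low and fell from 5.32 and 8.31 to 1.64 and 1.59 CPM (-2.08, SE 0.25), and the delta globin HBD fell from 17.5 and 19.6 to 7.18 and 6.70 CPM (-1.42, SE 0.18). HBBP1, a beta globin pseudogene of the same cluster on chromosome 11, fell from 92.8 and 88.4 to 31.4 and 30.2 CPM (-1.56, SE 0.14). In each of these genes both treated libraries lay below both untreated ones, as for every called gene that fell.

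Red cell surface and enzyme genes fell as well as the globins. GYPB, which encodes a glycophorin, fell from 28.5 and 28.5 to 11.8 and 11.2 CPM (log2 fold change -1.31, SE 0.14). The Rhesus antigen gene RHD fell from 29.1 and 32.1 to 6.93 and 10.2 CPM (-1.84, SE 0.24), and its neighbour RHCE from 16.1 and 20.8 to 5.11 and 6.27 CPM (-1.70, SE 0.26). SLC4A1, the band 3 anion exchanger, fell from 4.97 and 6.93 to 1.48 and 2.37 CPM (-1.63, SE 0.27). PKLR, the pyruvate kinase of red cells and liver, fell from 23.2 and 29.2 to 4.49 and 7.46 CPM (-2.13, SE 0.35). On the 4 untreated and Ceefourin 2 libraries alone GYPB passed, and RHD, RHCE, SLC4A1 and PKLR did not. SLC4A1 also did not pass with limma, an alternative test, on log2 TPM values. The counting can split reads between near copies, so the values of HBA2 (copy HBA1), HBG2 (HBG1), GYPB (GYPE), and RHD and RHCE are uncertain as single genes. Between 2 and 13 erythroid genes stayed called when 1 library was left out, with medians between -1.22 and -0.93.

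**Figure D2:**
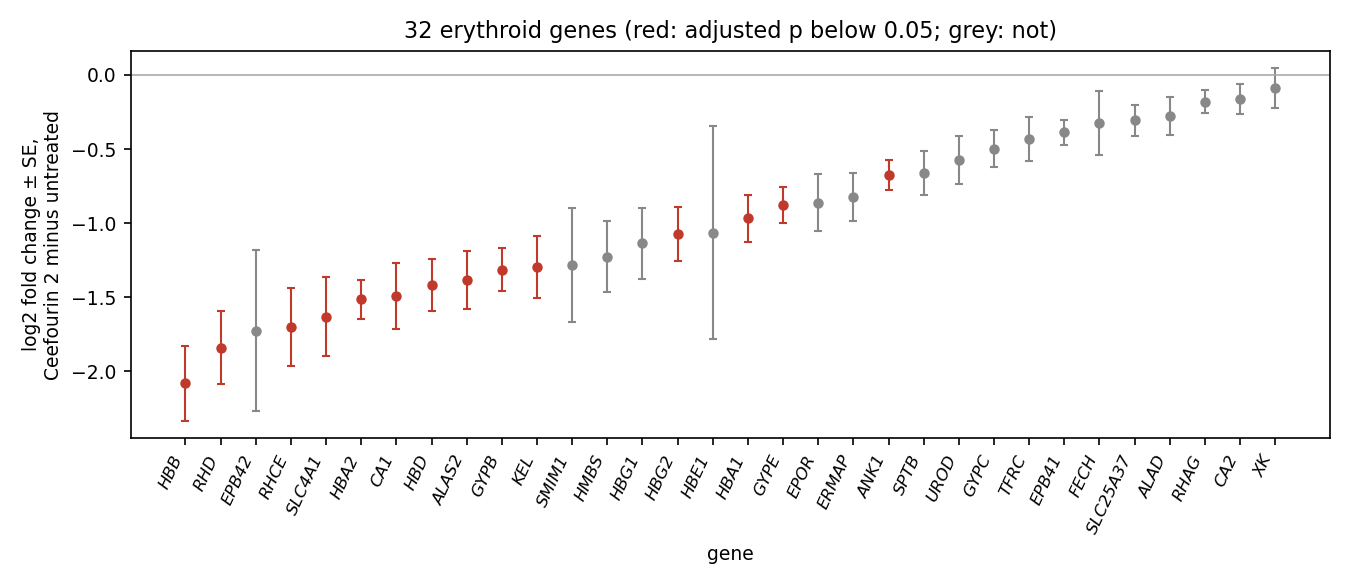
Log2 fold change of Ceefourin 2 against untreated cells for 32 of the 35 tested erythroid genes, with the SE of the edgeR fit as bars. The 14 called genes drawn are red, and every point lies below 0, from XK, nearest to it, to HBB, farthest from it (HBZ, which had 0 counts with Ceefourin 2, and 2 called genes are not drawn).

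Of 27 tested megakaryocyte and erythroid transcription factors 2 fell and 1 rose. KLF1, the factor that drives adult globin and red cell membrane genes, fell from 149 and 138 to 86.0 and 59.1 CPM (log2 fold change -0.98, SE 0.16, adjusted p = 0.029). LDB1, which joins GATA1 and TAL1 complexes at globin enhancers, fell from 137 and 131 to 99.0 and 86.0 CPM (-0.53, SE 0.10). CEBPA, a factor of the granulocyte and monocyte lineage, rose from 15.2 and 11.6 to 59.2 and 34.3 CPM (1.81, SE 0.27), and its treated libraries differed more from each other than the untreated ones did. KLF1 was called in 2 of the 8 fits without 1 library and LDB1 in 0. CD34, a sialomucin of stem and progenitor cells, fell from 18.5 and 15.01 to 5.95 and 4.88 CPM (-1.63, SE 0.26), in a list of 13 stem and progenitor genes with KIT as the single rise.

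Several leukocyte adhesion genes fell. Of 28 tested integrins and surface adhesion genes 5 fell and 1 rose, with a median of -0.09. SELPLG, the P-selectin ligand by which leukocytes roll on vessel walls, was at 59.8 and 69.1 CPM and then at 12.0 and 18.6 CPM (log2 fold change -2.07, SE 0.20, adjusted p = 0.0056). ITGAM, the CD11b chain of myeloid cells, fell from 53.6 and 50.8 to 14.8 and 19.8 CPM (-1.59, SE 0.16), and ITGB7, an integrin chain of gut-homing lymphocytes, from 3.49 and 3.92 to 0.608 and 0.951 CPM (-2.25, SE 0.22). ICAM3 fell from 3.95 and 3.82 to 0.857 and 1.14 CPM (-1.96, SE 0.24), and the sialophorin gene SPN by 0.48 on the log2 scale. CD44, the hyaluronan receptor, was the member that rose, from 273 and 264 to 421 and 378 CPM (0.57, SE 0.09). None of these named members passed on the 4 untreated and Ceefourin 2 libraries alone. SELPLG and ITGB7 were called in every fit that left out 1 library, ITGAM in 7 of 8, ICAM3 in 5, CD44 in 2 and SPN in 1, and the list held 2 to 5 lower calls in those fits.

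Some mast cell genes and single markers of other lineages changed as well. Of 15 tested mast cell and basophil genes 3 fell and none rose. FCER1A, the binding chain of the high-affinity IgE receptor, fell from 62.4 and 62.1 to 22.7 and 20.6 CPM (log2 fold change -1.53, SE 0.20), and HPGDS, a prostaglandin D synthase, from 4.74 and 4.88 to 1.76 and 2.19 CPM (-1.28, SE 0.23). The tryptase gene TPSB2, whose reads can be shared with TPSAB1, fell but was below 1 CPM in each of the 4 libraries compared. FCER1A was called in 4 of the 8 fits without 1 library, HPGDS in 2 and TPSB2 in 0, and the list held 0 to 2 lower calls. ITGAM was the single called gene of 9 monocyte and macrophage genes, whose summed level was 380 and 422 CPM with Ceefourin 2. Of 11 endothelial genes KDR and the junction protein ESAM rose, ESAM from 58.1 and 61.6 to 81.9 and 91.6 CPM (0.53, SE 0.09). PECAM1, shared by platelets and endothelium, fell from 147 and 159 to 79.5 and 92.8 CPM (-0.83, SE 0.11).

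The calcium-binding protein gene S100A4, linked to cell motility, had the smallest p of all genes that fell. It was at 97.4 and 102 CPM in untreated cells and 27.1 and 24.1 CPM with Ceefourin 2 (log2 fold change -1.96, SE 0.11, adjusted p = 0.00065). DHRS3, a retinaldehyde reductase, fell from 16.83 and 21.99 to 3.19 and 4.45 CPM (-2.35, SE 0.19), the single called gene of 20 retinoid and nuclear receptor genes. On the 4 untreated and Ceefourin 2 libraries alone S100A4 passed and DHRS3 did not. SULT1A4, a sulfotransferase for catecholamines, fell from 48.9 and 52.8 to 14.9 and 13.4 CPM (-1.84, SE 0.12). Its near copy SULT1A3 fell from 15.6 and 19.0 to 2.63 and 5.75 CPM (-2.05, SE 0.32), and reads of the 2 copies may have been split. Among the other largest falls were IGFBP5, a binding protein of insulin-like growth factors (-1.85, SE 0.18), the complement regulator CFP (-2.20, SE 0.26) and SLA2, an adaptor that restrains antigen receptor signalling (-1.95, SE 0.24).

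EREG, SERPINB2, MMP1 and STC1 were among the genes that rose. EREG, an epidermal growth factor family ligand, was at 45.2 and 45.7 CPM in untreated cells and 122 and 122 CPM with Ceefourin 2 (log2 fold change 1.43, SE 0.09, adjusted p = 0.00082). SERPINB2, an inhibitor of plasminogen activators, rose from 2.79 and 4.07 to 13.99 and 10.2 CPM (1.81, SE 0.23). The collagenase MMP1 rose from 3.66 and 2.89 to 12.5 and 8.12 CPM (1.66, SE 0.22) and the hormone gene STC1 from 2.27 and 3.27 to 7.42 and 8.60 CPM (1.52, SE 0.21). In the list of 32 immediate early genes and MAPK feedback genes, 3 rose, none fell, and the median was 0.85. DUSP5, a nuclear phosphatase that inactivates ERK, rose from 11.1 and 8.69 to 27.2 and 22.9 CPM (1.34, SE 0.16). IER3 rose from 2.37 and 4.66 to 10.6 and 23.5 CPM (2.26, SE 0.40), and its libraries lay far apart within each group. IER2 rose from 117.5 and 120 to 168.5 and 190.3 CPM (0.60, SE 0.11). DUSP5, IER3 and IER2 did not pass on the 4 untreated and Ceefourin 2 libraries alone. Left out 1 library at a time, the list held 0 to 6 called genes, and DUSP5 was called in 7 of 8 fits, IER2 in 2 and IER3 in 1.

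Of 24 protein kinase C, RAS and RAP1 genes, PRKCE rose from 13.8 and 13.5 to 24.2 and 23.6 CPM (log2 fold change 0.80, SE 0.09) and PRKCB fell from 495 and 536 to 334 and 355 CPM (-0.58, SE 0.08). Both encode protein kinase C isoforms, the enzymes that PMA activates. Of 20 BCR-ABL1 and STAT5 output genes 3 rose: SOCS3, a feedback inhibitor of JAK signalling (0.97, SE 0.14), the survival kinase gene PIM2 (0.53, SE 0.08) and the ETS factor gene ETV5 (0.65, SE 0.11). Without 1 library, 0 to 2 genes of the BCR-ABL1 and STAT5 list were called higher. Of genes tied to cyclic AMP, an ABCC4 cargo, 1 of 20 adenylate cyclase and protein kinase A genes fell (list median -0.02). Over all tested genes 1.68% were called. The gene was PRKAR1B, from 8.19 and 9.03 to 4.69 and 4.50 CPM (-0.91, SE 0.14). Of 19 CREB factors and cyclic AMP response genes (list median 0.19) 1 rose, the clock gene PER1, from 16.0 and 16.1 to 28.7 and 26.0 CPM (0.77, SE 0.10). PRKAR1B and PER1 did not pass on the 4 untreated and Ceefourin 2 libraries alone. A single call in a list of this size says little about the list, and the counts depended on the model. In the replicate block fit, 3 adenylate cyclase and protein kinase A genes were higher and 5 lower, with the list median again -0.02. Of the CREB and cyclic AMP response genes, 3 were higher and 0 lower there. That fit called 1430 of all 17314 tested genes. None of 13 cyclic nucleotide phosphodiesterases was called in the main fit, and 2 were higher in the block fit. PDE4B was nearest the threshold in the main fit (edgeR adjusted p = 0.077). It was at 0.790 and 1.36 CPM in untreated cells and 3.21 and 2.59 CPM with Ceefourin 2.

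Of 21 tested genes in a list of endoplasmic reticulum chaperones and related genes, 7 rose and none fell. The list, called chaperones below, also holds the transcription factor gene XBP1 and other genes that do not encode chaperones. The fold changes of all 21 were above 0, and their median was 0.60 on the log2 scale. These genes are textbook targets of the unfolded protein response, in which ATF6 and XBP1 act through an element that reads CCAAT, then 9 bases of any kind, then CCACG. That element, on either strand, was found in 27 of 35116 promoter windows (0.0769%) and in 9 of the 26 windows of list members. These belong to 7 of the 20 members that have a window: CALR, CANX, CRELD2, HSP90B1, HSPA5, PDIA6 and XBP1. Because the list holds known targets of this response, the matches are a description only. The 3 of these 7 genes that rose are shown as 100 bases each from the same RefSeq table of GRCh38.p14, on the gene's own strand, with the ends of 1 element in capitals (CGTGG and ATTGG where it lies on the other strand).

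HSP90B1: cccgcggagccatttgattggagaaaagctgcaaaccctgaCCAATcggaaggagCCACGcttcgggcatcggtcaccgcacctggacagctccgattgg
CALR: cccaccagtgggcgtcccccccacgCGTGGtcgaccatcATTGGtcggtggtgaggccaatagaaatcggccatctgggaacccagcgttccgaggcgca
CRELD2: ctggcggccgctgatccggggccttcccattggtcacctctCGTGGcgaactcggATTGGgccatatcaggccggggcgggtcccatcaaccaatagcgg

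The stretches are chr12:103930175-103930274 for HSP90B1, which has a second match further along its window, chr19:12938359-12938458 for CALR and chr22:49918513-49918612 for CRELD2, all on the plus strand. The windows of the other risers, MANF, DNAJB11, PDIA4 and HYOU1, held no match to these letters. CRELD2, a small resident protein of the compartment, rose from 8.17 and 7.38 to 14.6 and 15.1 CPM (log2 fold change 0.94, SE 0.11, adjusted p = 0.012). CALR, the calcium-binding lectin chaperone calreticulin, rose from 1379 and 1251 to 1897 and 1921 CPM (0.54, SE 0.08), and HSP90B1, the HSP90 of this compartment, from 465 and 387 to 681 and 638 CPM (0.63, SE 0.11). The 2 groups did not overlap in any of the 3, as in no called gene.

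The disulfide isomerase PDIA4 rose from 112 and 96.7 to 177 and 166 CPM (log2 fold change 0.72, SE 0.10), and the cochaperone DNAJB11 from 44.1 and 43.1 to 67.3 and 65.2 CPM (0.60, SE 0.08). HYOU1, a nucleotide exchange factor of the same compartment, rose from 186 and 162 to 261 and 268 CPM (0.60, SE 0.09), and the secreted factor MANF from 44.8 to 78.3 CPM on average (0.81, SE 0.15). None of the 19 cytosolic heat shock genes was called (median 0.04), and none of the 28 ATF4 and amino acid response genes (median 0.45). The summed level of the ATF4 list was 3500 and 4620 CPM in untreated cells and 3410 and 7720 CPM with Ceefourin 2, so it differed more between the treated libraries than between the groups. Without 1 library, 0 to 5 chaperones stayed called, with medians between 0.51 and 0.66.

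Of 25 tested cholesterol synthesis genes 5 rose and none fell, 24 had fold changes above 0, and the median was 0.58. The mevalonate decarboxylase MVD was at 30.7 and 31.9 CPM and then at 59.8 and 67.5 CPM (log2 fold change 1.02, SE 0.17, adjusted p = 0.033). INSIG1, the sterol-controlled anchor of SREBP processing, rose from 99.5 and 86.5 to 193 and 155 CPM (0.90, SE 0.13). Lanosterol synthase LSS rose from 110.1 and 93.7 to 165 and 154 CPM (0.65, SE 0.12), DHCR7, the last enzyme of one branch of the pathway, from 296 and 258 to 419.6 and 434 CPM (0.63, SE 0.12), and ACAT2 from 115 and 118 to 162 and 183 CPM (0.56, SE 0.11). No treated library reached down into the untreated range in these 5 genes, as the groups did not overlap for any called gene. Without 1 library 0 to 2 of the list stayed called, with medians between 0.51 and 0.64.

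Of 21 fatty acid synthesis and lipid storage genes, INSIG1, the lipid phosphatase gene LPIN1 and the desaturase gene FADS2 rose. LPIN1 went from 16.7 and 17.1 to 30.2 and 34.3 CPM (log2 fold change 0.93, SE 0.10), and FADS2 from 479 and 518 to 729 and 849 CPM (0.66, SE 0.10). Among 27 lysosome and autophagy genes 3 rose and 1 fell. The cholesterol transporter NPC1 (0.59, SE 0.10) and the hydrolase NEU1 (0.51, SE 0.08) rose but were called in 0 of the 8 fits without 1 library, while the protease CTSS fell from 37.9 and 41.9 to 20.9 and 21.4 CPM (-0.91, SE 0.10). In those fits the list held 0 to 1 higher calls. APOC1, an apolipoprotein, fell from 89.8 and 109 to 36.9 and 51.0 CPM (-1.18, SE 0.21) as the single called gene of 10 LXR and cholesterol efflux genes.

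Of 20 tested G1 cyclin and CDK inhibitor genes 2 rose, CDKN1A and CCND3, while 1.68% of all tested genes were called in either direction. CDKN1A, which encodes the inhibitor p21, was at 5.13 and 5.77 CPM and then at 21.3 and 17.1 CPM (log2 fold change 1.81, SE 0.14, adjusted p = 0.0027). It stood 3.52 times higher and was the single called gene of 21 p53 targets. The G1 cyclin gene CCND3 rose from 209.5 and 209.9 to 284.2 and 290 CPM (0.45, SE 0.08). Of 40 DNA replication genes MCM3, a helicase subunit, fell from 598 and 565 to 394 and 409 CPM (-0.54, SE 0.09), with a list median of -0.06, and none of 38 mitosis genes was called (median 0.02). CDKN1A was called in every fit that left out 1 library, MCM3 in 2 of 8 and CCND3 in 0.

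Interferon-stimulated genes did not move as a list, with a median of -0.07 over 40 tested members, of which 2 rose. Both encode guanylate-binding proteins, GTPases of cell-autonomous defence that lie close together on chromosome 1. GBP4 was at 117 and 125 CPM and then at 291 and 269.7 CPM (log2 fold change 1.21, SE 0.11, adjusted p = 0.0037), and GBP5 went from 7.92 and 6.88 to 35.4 and 33.3 CPM (2.22, SE 0.32). The peptide transporter TAP1 was the single called gene of 21 MHC class I and II genes (0.56, SE 0.11), and TRAF1, an adaptor of tumour necrosis factor receptors, of 20 NF-kB genes (1.24, SE 0.23). Neither TAP1 nor TRAF1 passed on the 4 untreated and Ceefourin 2 libraries alone. None of 29 cytokines and chemokines was called, with IL1A nearest at 1.54 and 2.27 CPM and then 3.75 and 5.99 CPM (adjusted p = 0.052).

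**Figure D3:**
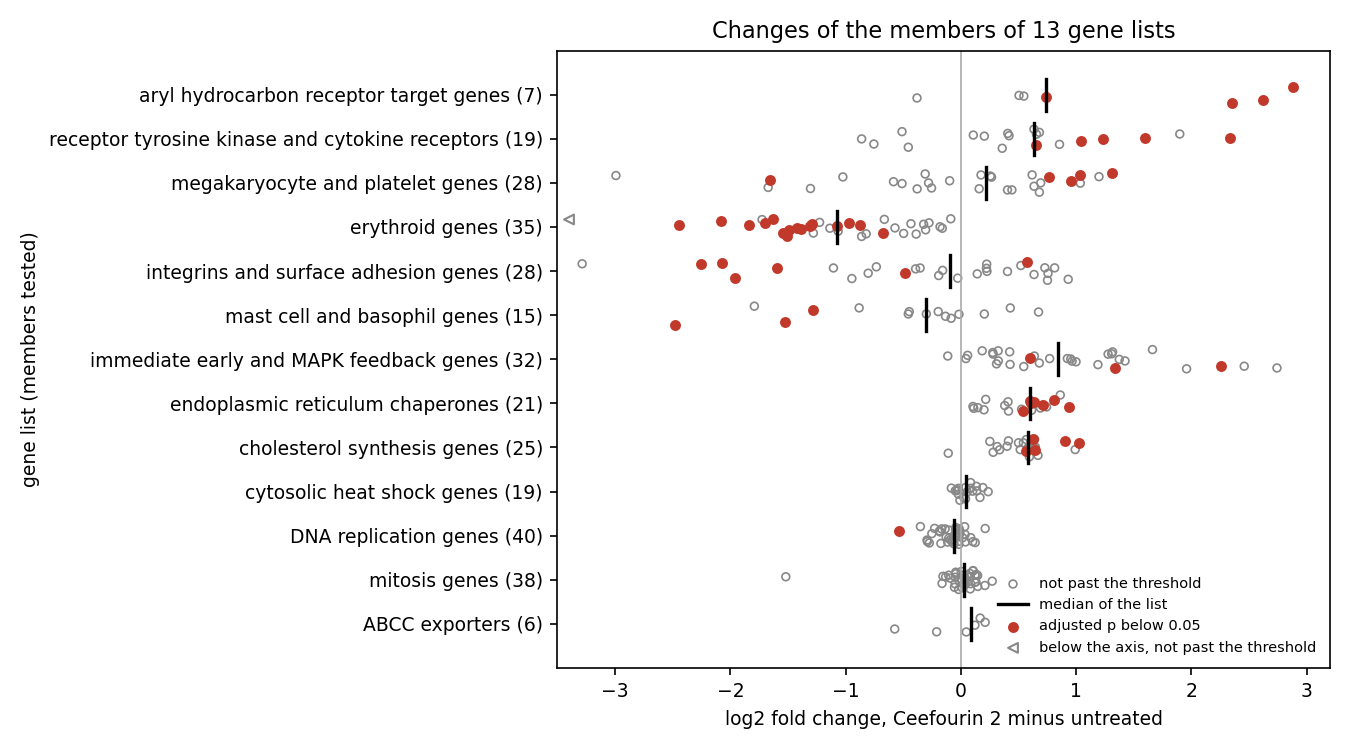
Each point is 1 tested gene of 13 lists, placed by its log2 fold change of Ceefourin 2 against untreated cells, with called genes in red and the list median as a black bar. The erythroid points lie left of 0, with 1 member beyond the axis, the chaperone points right of it, and the heat shock, DNA replication and mitosis points gather around 0.

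The same inhibitor was also given together with PMA, and that comparison shares no library with the one described here. Adding Ceefourin 2 to PMA changed 317 of 17314 tested genes (1.83%). Of these, 78 were also called without PMA, which is 24.6% of the genes called with PMA and 26.8% of the 291 called without, and 75 of the 78 changed in the same direction. Of the 291 genes, 239 had the same sign in both backgrounds (82.1%, against 62.8% of all tested genes). Their median log2 fold change was smaller in size with PMA: 0.39 against 0.93 for the genes that rose and -0.48 against -1.17 for those that fell. The 291 were chosen by their values without PMA, so these medians are a description and not a test of a weaker effect.

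The genes called in both included the strongest rises. CYP1B1 went from 76.0 and 79.2 CPM with PMA to 389 and 330.4 CPM with PMA plus Ceefourin 2 (log2 fold change 2.21, adjusted p = 0.00022), beside 2.63 without PMA. KIT went from 32.4 and 32.2 to 199 and 172 CPM (2.52), beside 2.33, and KDR from 30.2 and 32.6 to 106 and 111 CPM (1.78), beside 1.04. CYP1A1 (2.77), AHRR (1.24) and TIPARP (1.20) also rose with PMA, and no difference between their effects in the 2 backgrounds passed the test (adjusted p of the AHR target list at least 0.27). FCER1A fell from 208 and 293 to 28.3 and 40.6 CPM (-2.86), beside -1.53, a difference that did not pass (adjusted p = 0.22).

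The test of the difference between the 2 effects called 2 genes (0.0116%), both among the 291, and 1234 genes reached an unadjusted p below 0.05. S100A4, which fell 1.96 on the log2 scale without PMA, was at 123 and 139.5 CPM with PMA and 116 and 102 CPM with PMA plus Ceefourin 2 (-0.27, adjusted p = 0.31). The effect without PMA was lower by 1.68 (SE 0.15, adjusted p of the difference 0.047). APOL3, an apolipoprotein L family gene, fell from 5.34 and 6.47 to 3.10 and 3.01 CPM without PMA (-0.95, SE 0.16) and rose from 10.6 and 12.0 to 31.8 and 26.4 CPM with it (1.36, adjusted p = 0.0067). FADS2, which rose without PMA, fell from 672 and 722 to 464 and 448 CPM with it (-0.61), and NYNRIN fell without PMA (log2 fold change -0.9997) and rose with it (1.14). No gene was called for the difference when 1 library was left out, except 2 without Ceefourin 2 replicate 2 and 1 without PMA plus Ceefourin 2 replicate 2, and none with a filter of 1 CPM. The difference did not pass for FADS2 (adjusted p = 0.057) or NYNRIN (adjusted p = 0.062).

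For several groups the median was smaller in size in the PMA background, and for others it was larger. The AHR target median was 1.2 with PMA against 0.74 without, and the mast cell and basophil median was -0.62 against -0.3. The lists were chosen with earlier results of these data known, so these medians are a description and not a test. The chaperone median was 0.11 with PMA against 0.60 without, and 0 of 21 members were called there. The cholesterol median was -0.02 against 0.58, again with 0 of 25 called, and LSS had 53.7 and 45.7 CPM with PMA and 46.5 and 41.5 CPM with PMA plus Ceefourin 2. Erythroid genes had a median of -0.29 against -1.07, with 4 of 35 lower. ITGB3, at 909.5 and 908 CPM with PMA and 1081 and 1038 CPM with PMA plus Ceefourin 2, did not pass there (0.22). For the members of the chaperone, cholesterol and erythroid lists and for ITGB3 the difference between backgrounds did not pass either (smallest adjusted p 0.18 for chaperones, 0.17 for cholesterol genes, 0.14 for erythroid genes, and 0.057 for ITGB3).

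**Figure D4:**
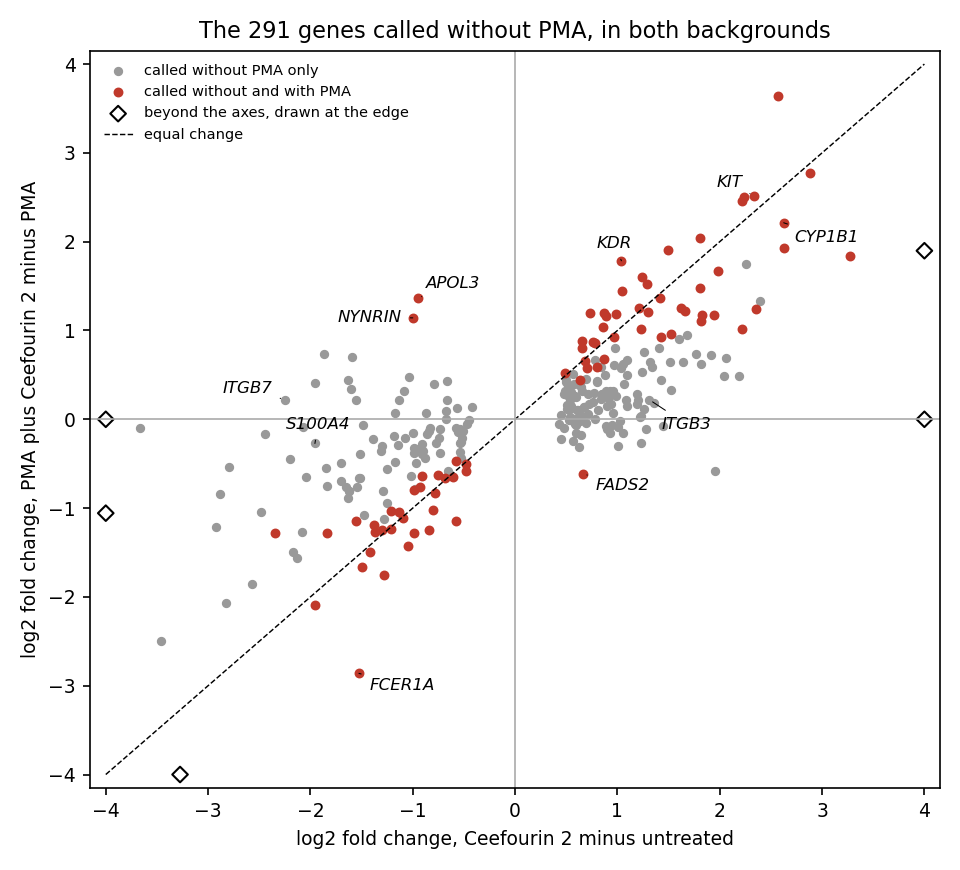
Each point is 1 of the 291 genes called without PMA, with its log2 fold change for Ceefourin 2 against untreated cells (horizontal) and for PMA plus Ceefourin 2 against PMA (vertical); the 78 genes called in both are red, the dashed line marks equal changes, and 5 genes beyond the axes are drawn at the edge. KIT and CYP1B1 lie near the dashed line, and APOL3, NYNRIN and FADS2 lie on the opposite side of 0.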

How the data were processed

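Libraries of polyadenylated RNA were made with a stranded kit and read from both ends, per the labels' protocols. The submitters' processing notes name the aligner STAR 2.7, the quantifier RSEM 1.3.1 and the build hg38. Which annotation release they counted against is not given in these sources. The authors deposited expected counts per gene, not normalized (60754 genes), and TPM values from RSEM, per the file headers. In each library 7.05% to 7.83% of expected counts were not whole (tolerance 1e-06).

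Expected counts were rounded and tested with edgeR 4.0.16 in R 4.3.3: filterByExpr, TMM factors (0.9197 to 1.083), quasi-likelihood tests from 1 model with a coefficient for each group, all 8 libraries and no block, and Benjamini-Hochberg adjustment over all 17314 tested genes. Residual degrees of freedom were 4, and the common biological coefficient of variation came to 13.6%. Fold changes are log2, and SEs were obtained as the size of the fold change over the root of F. The code was tested on simulated data. Alternatives were DESeq2 1.42.0, limma 3.58.1 on log2(TPM + 1) and log2(TPM + 0.1), other scaling and filters, fewer libraries and the replicate number as a block. Deviations of same-numbered libraries from their group means correlated at 0.82 between the untreated and Ceefourin 2 groups and at 0.36 to 0.77 in the other pairs of groups (9454 genes). With 2 numbers per group and no label on what a number marks, the block stayed an alternative.

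Named genes were ABCC4, the 15 largest rises and falls among called protein-coding genes of at least 5 CPM whose groups did not overlap, up to 6 called members per list of smallest p (or the member of smallest p), AHR targets, ABCC exporters, up to 10 genes whose effect differed with PMA, and up to 4 called genes not annotated as protein coding. HBG2, ITGA2B, MANF, NYNRIN, XK and HBZ were chosen after their values were seen. The 48 lists hold 1039 symbols, all matched by Ensembl identifier; members and lists were chosen with earlier results of these data known. Some list members are counted but not reported here by name. Promoter windows came from RefSeq.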

Additional observations from a re-analysis of the deposited data

Results flagged for a closer look

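For 2 genes the effect of Ceefourin 2 differed between cells without and with PMA by a test of the difference itself (edgeR interaction, adjusted over all tested genes). For S100A4 the effect without PMA minus the effect with PMA was -1.68 on the log2 scale, and for APOL3 it was -2.31; both had an adjusted p of 0.047. Both treated libraries lay below both untreated ones for each gene. The 2 groups did not overlap for any of the 291 called genes, nor for 40.7% of all tested genes. The fall of S100A4 also passed on the 4 untreated and Ceefourin 2 libraries alone, and that of APOL3 did not. In PMA-treated cells APOL3 was higher with Ceefourin 2 in both libraries.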

How the results depend on the processing

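All 291 called genes kept their direction in every alternative that fitted them (284 of 284 with a filter of 1 CPM). Because the 2 groups did not overlap for any of them, leaving out 1 library or rescaling could hardly reverse a sign. The kept directions are therefore no test of stability. The count itself moved: it was 1174 with no filter on low counts, 813 with DESeq2, 31 on the 4 untreated and Ceefourin 2 libraries alone, and between 30 and 188 when 1 library was left out, where an arm left with 1 library is assumed to vary like the others. The share of rises among calls was 57% and became 75.7% without Ceefourin 2 replicate 1. With the replicate block it was 1430, or 2684 on the 4 libraries alone, and ABCC4 then passed the threshold at 0.21 and 0.22 on the log2 scale (adjusted p = 0.038 and 0.021); without the block its adjusted p was between 0.37 and 0.75. The block also raised the calls within lists, to 29 of 35 erythroid genes lower, 15 of 21 chaperones higher and 21 of 25 cholesterol genes higher. On the 4 libraries alone without the block, 5 erythroid genes, 0 chaperones and 0 cholesterol genes were called. The number of genes whose effect differed with PMA was 2, and became 5 with DESeq2 size factors, 5 without TMM, 414 with no filter, 0 with a filter of 1 CPM, 191 with DESeq2, 19 and 8 with limma on log2(TPM + 1) and log2(TPM + 0.1), 247 with the replicate block and between 0 and 2 when 1 library was left out. Of the 247, 9 were chaperones, 10 cholesterol genes and 9 erythroid genes. Changes of sign arose in uncalled genes: ABCC10 was at -0.12 and -0.13 with limma, ABCC5 ranged from -0.41 to 0.01 and ABCC1 from -0.18 to 0.37 without 1 library. Of 95 called genes named here, 17 were called in all 8 fits without 1 library. The cause of these shifts was not tested. With 2 libraries a group, the SD of a group is itself imprecise, and genes below about 1 CPM rest on few counts.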

Other observations

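Some further changes belong to no list described above. TMEM200A, a membrane protein gene on chromosome 6, was at 1.56 and 2.32 CPM in untreated cells and 7.87 and 8.47 CPM with Ceefourin 2 (log2 fold change 2.06, SE 0.18), and was called in all 8 fits that left out 1 library. CNIH3, which encodes a cargo receptor and AMPA receptor partner, rose from 1.81 and 1.76 to 5.20 and 5.82 CPM (1.62, SE 0.21), and the calcium-binding protein gene CABP7 from 8.44 and 7.94 to 24.22 and 21.99 CPM (1.497, SE 0.28). On the 4 untreated and Ceefourin 2 libraries alone CABP7 passed, and TMEM200A and CNIH3 did not. Of 18 called genes not annotated as protein coding 5 rose and 13 fell. LINC02762, a long noncoding RNA gene on chromosome 11, rose from 7.29 and 7.59 to 19.7 and 18.5 CPM (1.36, SE 0.12), and TRGC2, a T cell receptor gamma constant segment, from 0.956 and 0.931 to 2.93 and 3.13 CPM (1.68, SE 0.23).

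HK1, the hexokinase of red cells and most tissues, fell from 481 and 474 to 321 and 350.5 CPM (-0.51, SE 0.08), the single called gene of 31 hypoxia and glycolysis genes. BLVRB, the biliverdin reductase abundant in red cells, fell from 70.0 and 83.0 to 29.1 and 40.6 CPM (-1.13, SE 0.20) as the single called gene of 21 NRF2 targets. None was called among 39 nuclear encoded oxidative phosphorylation genes (median -0.09), 13 mitochondrial transcripts, 32 ribosome biogenesis and MYC target genes, 24 purine genes, 9 metallothionein and zinc genes, 18 BCL2 family genes or 17 WNT genes. GZMA, a cytotoxic granule protease, was the single called gene of 7 lymphoid genes, from 1.64 and 2.04 to 3.93 and 5.27 CPM (1.31, SE 0.24). HK1, BLVRB and GZMA did not pass on the 4 untreated and Ceefourin 2 libraries alone. Left out 1 library at a time, the log2 fold change was -0.57 to -0.43 for HK1, -1.39 to -0.9 for BLVRB and 1.09 to 1.52 for GZMA.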
